A study of Mus musculus with 12 samples.

Results

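The circadian clock genes Per1, Per2, Per3, Cry1, Cry2, Clock, Nr1d1, Nr1d2, Dbp and Bhlhe40 were followed in the hippocampal CA1 subfield of mice after forebrain ischemia. They were read through all probe sets whose single gene symbol in the platform annotation was one of these names. That rule found 16 probe sets for the 10 genes, of 20393 probe sets that list 1 gene and 12394 genes in all. The genes and the lists below were picked with earlier results of these data known.

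Total RNA of CA1 was measured on 12 Affymetrix arrays, 3 in each of 4 groups. The groups were wild-type mice after sham surgery, wild-type mice after 10 minutes of global cerebral ischemia and 3 hours of reperfusion, and SUMO-KD transgenic mice after either procedure. SUMO is a small ubiquitin-like protein joined to lysines of many targets, and its knockdown in these mice gives SUMO-KD its name. Each sample pooled the tissue of 2 mouse brains, so an array reports a pair of animals. Strain, age, sex, the promoter of the knockdown transgene, the hour of surgery and the light schedule are unstated in the labels. The sham pools carry the same genotype as the ischemia pools they were set against, and the design compares surgery within genotype, genotype within surgery, and the response between genotypes.

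The clock is a feedback loop of transcription. CLOCK and its partner BMAL1, the product of Arntl, bind E-box sequences and switch on the Per and Cry genes, whose proteins return to the nucleus and inhibit the pair. NR1D1 and NR1D2, also called REV-ERB alpha and beta, repress Arntl, while ROR receptors activate it. The output factor DBP carries the rhythm to other genes, and the repressor BHLHE40 competes for E-boxes. In the brain Per1 is also an immediate early gene that responds to neuronal activity through cAMP response elements and to glucocorticoids, and hippocampal clock genes cycle through the day.

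All arrays had been scaled to a common level: the mean intensity after removal of the top and bottom 2% of values was 500.2 on each. Values are linear intensities, a difference is one of log2(intensity + 32), and a probe set was called at an adjusted p under 0.05 in limma's test over all 20393 probe sets. Levels of different clock probe sets were not ranked against each other, because each probe set has its own response. Sumo3, the SUMO gene measured by a probe set of its own, was lower in SUMO-KD, at 1337 to 1689 against 2247 to 2467 in sham (−0.58, limma adjusted p = 0.0149) and at 1879 to 1936 against 3245 to 3518 after ischemia (−0.82, adjusted p = 0.00233), so its arrays fit their genotype labels. Control probe sets for 18S ribosomal RNA moved with surgery. The 5′ one read at least 4194 in sham (highest 6528) and at most 1659.6 in 5 ischemia arrays (lowest 1275), while SUMO-KD ischemia replicate 2 read 4127. Wfs1 and Pou3f1, markers of CA1 pyramidal neurons, had mean intensities of 1523 and 1289, and Ndst4, the other one measured, 43.9. Markers of neighbouring tissue also gave signal. Of the choroid plexus, Ttr was at 19142, Kl at 869 and Folr1 at 638. Of dentate granule cells, Dsp was at 1465, Tdo2 at 248.5 and Prox1 at 87.5. Of CA3, Nptx1 was at 4444, Bok at 1303 and Iyd at 135. These values give no proportions between tissues. Marker sums were compared between arrays only. Summed over the 3 measured CA1 markers (Wfs1, Pou3f1 and Ndst4), the intensity ranged from 3635 to 5295 in wild-type sham and from 2074 to 2969 in wild-type ischemia arrays. In SUMO-KD it ranged from 2145 to 2749 in sham and from 1894 to 2360 in ischemia arrays. The 3 measured dentate markers summed to 1205 to 2412 in wild-type sham arrays and to 1996 to 2822 in SUMO-KD sham arrays. After ischemia they summed to 1461 to 1599.8 in wild-type, which overlapped sham. In SUMO-KD they summed to 1387 to 1663 after ischemia, lower than in sham without overlap. The 7 microglial markers summed to 5257 or more in the 6 sham arrays and to 4505 or less in the 6 ischemia arrays. The 6 endothelial markers were lower after ischemia without overlap in each genotype, at 1965 to 2410.2 in sham and 1415 to 1819.9 after ischemia in wild-type, and at 1644 to 2162 and 1419 to 1537 in SUMO-KD. The 5 oligodendrocyte markers overlapped in wild-type but were higher after ischemia in SUMO-KD, at 31754 to 33742 against 28947 to 30343. The 7 astrocyte markers separated the genotypes in sham, at 12509 to 14159.5 in wild-type and 14925 to 16824 in SUMO-KD. The part of these shifts in the results below was not tested, and in bulk tissue fewer cells of a type and less RNA per cell cannot be told apart.

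Per1, Per2, Cry1, Cry2, Nr1d1 and Bhlhe40 were higher after ischemia than after sham in both genotypes, with ratios of mean intensities from 1.92 to 2.61. Per3 was lower after ischemia in the average over genotypes, and Clock, Nr1d2 and Dbp passed in neither direction. The labels give no hour of collection and, for sham, no time after surgery. For these rhythmic genes, surgery and hour of collection therefore cannot be told apart. In wild-type, 7 of the 16 probe sets were called higher, against 9.15% of all probe sets, and 0 lower, against 6.74%; 9 had an unadjusted p under 0.05. In SUMO-KD, 6 were called higher, against 5.42% of all probe sets, and 0 lower, against 3.32%, with 8 at an unadjusted p under 0.05. Shares of all probe sets or genes at an unadjusted p under 0.05 were not computed. Counts at that threshold, here and below, are given without a background. Averaged over both genotypes, 7 were higher, against 12.5%, and 1 was lower, against 11.1%. The arrays of sham and ischemia did not overlap for 10 of 16 probe sets in wild-type, where 32.6% of all probe sets were apart, and for 9 in SUMO-KD, where 28.0% were. Counting each gene by its brightest probe set, the median difference over the 10 genes was 0.90 in wild-type and 0.86 in SUMO-KD, beside −0.04 and −0.02 over all genes. Over all 16 probe sets the median was only 0.10 in wild-type and 0.05 in SUMO-KD, beside −0.02 and −0.01 over all probe sets. Without SUMO-KD ischemia replicate 2, the array with the high 18S control, 7 were called higher in wild-type and 5 in SUMO-KD, Cry1 being the one lost.

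**Figure D1:**
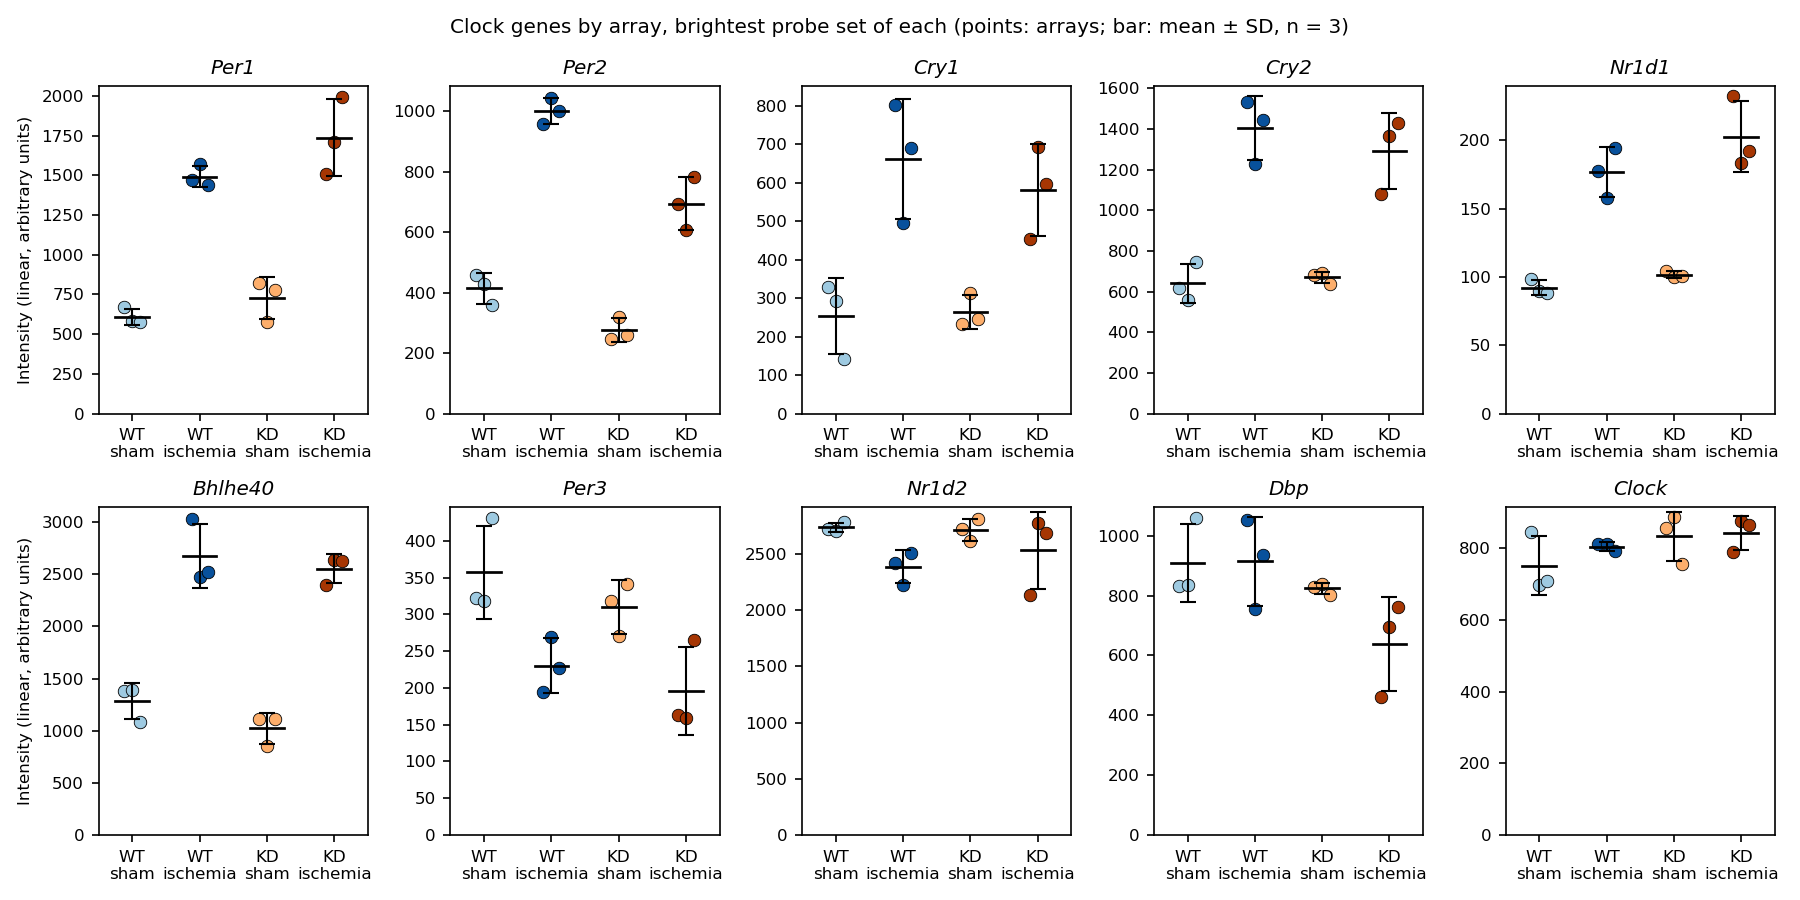
Linear intensity (vertical axis, from 0) of the brightest probe set of each clock gene on the 12 arrays, by genotype (WT wild-type, KD SUMO-KD) and surgery; points are arrays and bars the mean ± SD of 3. Per1, Per2, Cry1, Cry2, Nr1d1 and Bhlhe40 sit higher in every ischemia array than in any sham array of the same genotype, and Per3 sits lower.

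Per1, which encodes a repressor of CLOCK and BMAL1 and is the family member best known for rapid induction, was measured by 1 probe set (1449851_at). Its intensities were 668, 582 and 575 in the wild-type sham arrays and 1469, 1569 and 1438 in the wild-type ischemia arrays. In SUMO-KD they were 823, 578 and 779 in sham and 1511, 1711 and 1991 after ischemia. Every ischemia array of a genotype lay above every sham array of it, with 1 low sham array in SUMO-KD. The difference was 1.25 in wild-type (SE 0.14, limma adjusted p = 0.000156) and 1.23 in SUMO-KD (adjusted p = 0.000256). As a ratio of mean intensities this was 2.45 and 2.39.

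The Per1 gene has 2 annotated starts in RefSeq (GRCm38.p6), and the 250 bases before each are shown because both carry motifs through which Per1 is known to be driven. The windows searched ran from 250 bases before to 50 after the start. Both strands were searched for the E-box CACGTG, the E-prime box CACGTT, the cAMP response element TGACGTCA and its short form TGACG (which the full element contains), the D-box TTATGTAA or TTACGTAA, and the RORE core AGGTCA. Capitals mark every match; one on the opposite strand shows as its reverse complement, and all sequences are read 5′ to 3′ along the gene.
Per1, upstream start, chr11:69098699-69098948, plus strand: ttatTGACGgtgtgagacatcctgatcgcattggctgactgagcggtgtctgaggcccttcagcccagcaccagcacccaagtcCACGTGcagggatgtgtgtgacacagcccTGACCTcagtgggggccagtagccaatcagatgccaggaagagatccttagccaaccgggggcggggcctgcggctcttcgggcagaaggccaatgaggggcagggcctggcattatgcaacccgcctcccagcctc
Per1, downstream start, chr11:69099902-69100151, plus strand: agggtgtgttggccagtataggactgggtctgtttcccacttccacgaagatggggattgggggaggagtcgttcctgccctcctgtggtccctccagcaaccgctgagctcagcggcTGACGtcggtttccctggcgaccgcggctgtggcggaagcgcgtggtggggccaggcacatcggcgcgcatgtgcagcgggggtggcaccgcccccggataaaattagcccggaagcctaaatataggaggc
In the first, the E-box lies at −166 from the start, a short cAMP element at −246 and an RORE core, on the opposite strand, at −137. The second holds a short cAMP element at −132. Of all 32851 promoter windows of this length in the RefSeq table, 7.15% hold the E-box, 20.8% the short cAMP element and 16.3% the RORE core. The full cAMP response element is in 1.79% of windows and in none of the 6 windows of the called clock genes. A match describes the letters and was not tested as a site.

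Per2, the second repressor of the pair, had 2 probe sets. The brighter one (1417602_at) read 457, 429 and 358 in wild-type sham and 958, 1042 and 1001 in wild-type ischemia arrays. In SUMO-KD it read 247, 320.2 and 259 in sham and 692, 606 and 782 after ischemia. Ischemia again cleared sham in both genotypes, by 1.21 in wild-type (SE 0.13, limma adjusted p = 9.66e-05) and 1.24 in SUMO-KD (adjusted p = 0.000130), while the SUMO-KD arrays stood below the wild-type arrays of the same surgery. The second probe set (1417603_at) was dim, with group means of 38.7 ± 8.8 in wild-type sham, 92.6 ± 10.0 in wild-type ischemia, 35.4 ± 2.9 in SUMO-KD sham and 60.7 ± 19.0 in SUMO-KD ischemia arrays (SD, n = 3). It rose in wild-type (0.82, limma adjusted p = 0.00329). In SUMO-KD its difference of 0.44 did not pass (adjusted p = 0.0951), where ischemia replicate 1 read 39.0 against 68.7 and 74.5; without that array it was 0.62 (adjusted p = 0.0101).

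Both cryptochrome genes, which encode the other arm of the repressor complex, rose as well. Cry1 (1433733_a_at) had intensities of 328, 292 and 141 in wild-type sham and 802, 495 and 689 in wild-type ischemia arrays. In SUMO-KD they were 233, 314 and 244 in sham and 454, 693 and 596 after ischemia. Its SD of 39.0% of the mean in wild-type sham, where replicate 3 was low, was the largest within any group for the brightest probe sets of the 6 raised genes. The groups did not overlap, and the difference was 1.32 in wild-type (SE 0.27, limma adjusted p = 0.00616) and 1.04 in SUMO-KD (SE 0.27, adjusted p = 0.0320). The SUMO-KD call was fragile. It was lost when any 1 of the 3 SUMO-KD sham arrays was left out, with limma adjusted p-values of 0.106, 0.0505 and 0.0946 for replicates 1, 2 and 3. It was also lost without SUMO-KD ischemia replicate 2 (difference 0.91, adjusted p = 0.128) and without replicate 3 of that group (difference 1.02, adjusted p = 0.0940).

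Cry2 (1426383_at) was steadier. Its intensities were 616, 558 and 746 in wild-type sham arrays and 1535, 1229 and 1447 after ischemia in that genotype. In SUMO-KD they were 680.1, 691 and 639 in sham and 1080.2, 1367 and 1432 after ischemia. All 6 ischemia arrays lay above all 6 sham arrays, and the difference was 1.10 in wild-type (SE 0.14, limma adjusted p = 0.000308) and 0.91 in SUMO-KD (adjusted p = 0.00172). The region before the Cry1 start is shown because it holds both kinds of E-box letters close together, on the minus strand of the genome.
Cry1, chr10:85185055-85185304, minus strand: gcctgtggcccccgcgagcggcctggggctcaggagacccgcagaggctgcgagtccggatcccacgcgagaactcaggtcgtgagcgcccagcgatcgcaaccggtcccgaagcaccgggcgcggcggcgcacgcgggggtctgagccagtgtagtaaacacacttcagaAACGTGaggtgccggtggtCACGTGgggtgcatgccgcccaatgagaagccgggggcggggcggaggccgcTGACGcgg
The E-box CACGTG lies at −60 from the Cry1 start, the E-prime box, on the opposite strand, at −79 and a short cAMP element at −8. The Cry2 window held an E-prime box at −166 and a short cAMP element at −209, both on the opposite strand. The E-prime letters occur in 4.69% of all windows, and among the 6 windows of the called clock genes they were in 3 (Cry1, Cry2 and Nr1d1), while CACGTG was in 2 (Per1 and Cry1).

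Per3, the third Period gene, which the loop can run without and which cycles in many tissues, fell on average over genotypes. The brightest of its 3 probe sets (1421087_at) read 322, 318 and 431 in wild-type sham and 195, 269 and 227 in wild-type ischemia arrays. In SUMO-KD it read 319, 270.2 and 341 in sham and 163, 159.6 and 265 after ischemia. The ischemia arrays were below the sham arrays in each genotype, although SUMO-KD ischemia replicate 3 lay close to the lowest sham array (265 against 270.2). Averaged over both genotypes the difference was −0.59 (SE 0.13, 95% interval −0.87 to −0.31, limma adjusted p = 0.00637). Within a genotype it missed the threshold, at −0.57 in wild-type (limma adjusted p = 0.0565) and −0.61 in SUMO-KD (adjusted p = 0.0618), and it passed in both with dim probe sets removed, with quantile normalization, with median centring or with the replicate number as a block. Without SUMO-KD ischemia replicate 3 it also passed in both, at −0.57 in wild-type (adjusted p = 0.0247) and −0.82 in SUMO-KD (adjusted p = 0.0156). The other 2 probe sets were near background, with group means from 32.6 to 48.1 and from 7.4 to 17.0, and were not called.

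The letters before the Per3 start are shown beside those of Per1 and Cry1 because they differ in kind, with the D-box, the element bound by DBP and opposed by NFIL3, present in duplicate and no E-box.
Per3, chr4:151044666-151044915, minus strand: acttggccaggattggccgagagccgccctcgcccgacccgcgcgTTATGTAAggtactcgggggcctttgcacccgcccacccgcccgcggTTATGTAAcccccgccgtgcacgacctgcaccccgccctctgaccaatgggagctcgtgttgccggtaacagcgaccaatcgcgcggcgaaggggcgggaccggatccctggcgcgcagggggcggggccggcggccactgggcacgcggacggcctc
The D-boxes lie at −205 and −158 from the start, and a D-box is in 1.06% of all windows. Per3 was the single called clock gene with one in its window, and it was also the single one that fell; this is a description of 5 genes with a RefSeq window (Per1, Cry1, Cry2, Nr1d1 and Per3), with no test.

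Of the REV-ERB pair, Nr1d1 rose and Nr1d2 did not. Nr1d1 (1426464_at) had intensities of 98.2, 89.8 and 88.0 in wild-type sham and 178, 158 and 195 in wild-type ischemia arrays. SUMO-KD arrays read 105, 99.8 and 101 in sham and 233, 183 and 192 after ischemia. It was a tight separation at a low signal, with all 6 sham arrays at 105 or less and all 6 ischemia arrays at 158 or more. The difference was 0.75 in wild-type (SE 0.10, limma adjusted p = 0.000555) and 0.81 in SUMO-KD (adjusted p = 0.000500). On the linear scale the ratio of means was 1.92 and 1.99, larger than the log2 difference shows because the offset of 32 is not small beside these values.

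Nr1d2 was bright on its first probe set (1416958_at), at 2717, 2706 and 2779 in wild-type sham and 2420.1, 2222 and 2509.5 in wild-type ischemia arrays. In SUMO-KD it read 2717, 2614 and 2808 in sham and 2136, 2770.4 and 2684 after ischemia. Wild-type ischemia arrays lay below wild-type sham arrays by a small step, −0.20 (95% interval −0.42 to 0.03, limma adjusted p = 0.242), and the SUMO-KD groups overlapped (−0.11, adjusted p = 0.621). Its upper bounds of 0.03 and 0.12 lie below the lower bounds of Nr1d1, 0.53 and 0.59. The second Nr1d2 probe set had group means from 12.5 to 19.0, near background, and was not called.

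Bhlhe40, also known as Dec1, encodes a repressor that competes for E-boxes and is induced by many stimuli. Its probe set (1418025_at) read 1379, 1392 and 1086 in wild-type sham and 3032, 2476 and 2524 in wild-type ischemia arrays. In SUMO-KD it read 1109.9, 852 and 1109 in sham and 2400.4, 2637 and 2630.0 after ischemia. The highest sham array read 1392 and the lowest ischemia array 2400.4, and the difference was 1.04 in wild-type (SE 0.14, limma adjusted p = 0.000438) and 1.3 in SUMO-KD (adjusted p = 0.000148).

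Dbp, an activator of D-box genes whose level swings widely over the day in many tissues, had 2 probe sets that were called in no comparison. The brighter one (1438211_s_at) read 831, 837 and 1059 in wild-type sham and 1053, 755 and 934 in wild-type ischemia arrays. In SUMO-KD it read 830.2, 838 and 803 in sham and 462, 694 and 761 after ischemia. Wild-type groups overlapped (0.00, 95% interval −0.38 to 0.39), while the 3 SUMO-KD ischemia arrays lay below the SUMO-KD sham arrays (−0.38, 95% interval −0.76 to 0.01, limma adjusted p = 0.232). The second probe set (1418174_at) gave 0.10 and −0.06, with overlapping groups in both genotypes, so the SUMO-KD step was seen on 1 of 2 probe sets.

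Clock, the activator itself, was not called. The brighter of its 2 probe sets (1418659_at) ranged from 698 to 845 in wild-type sham, 791 to 811 in wild-type ischemia, 756 to 888 in SUMO-KD sham and 788 to 876 in SUMO-KD ischemia arrays. Its difference was 0.10 in wild-type (95% interval −0.11 to 0.32) and 0.02 in SUMO-KD (95% interval −0.20 to 0.23), and both intervals lie below those of Per1, whose lower bounds were 0.95 and 0.92. The second probe set (1418660_at) had 574 to 624 in wild-type sham and 485 to 522 in wild-type ischemia arrays. That separation of −0.23 did not pass (limma adjusted p = 0.0849) and went the other way from the first probe set. It passed with array weights (−0.26, limma adjusted p = 0.0411). In the mean response this probe set had −0.16 (limma adjusted p = 0.0783). There it passed with an offset of 64, with array weights, or without SUMO-KD ischemia replicate 1.

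**Figure D2:**
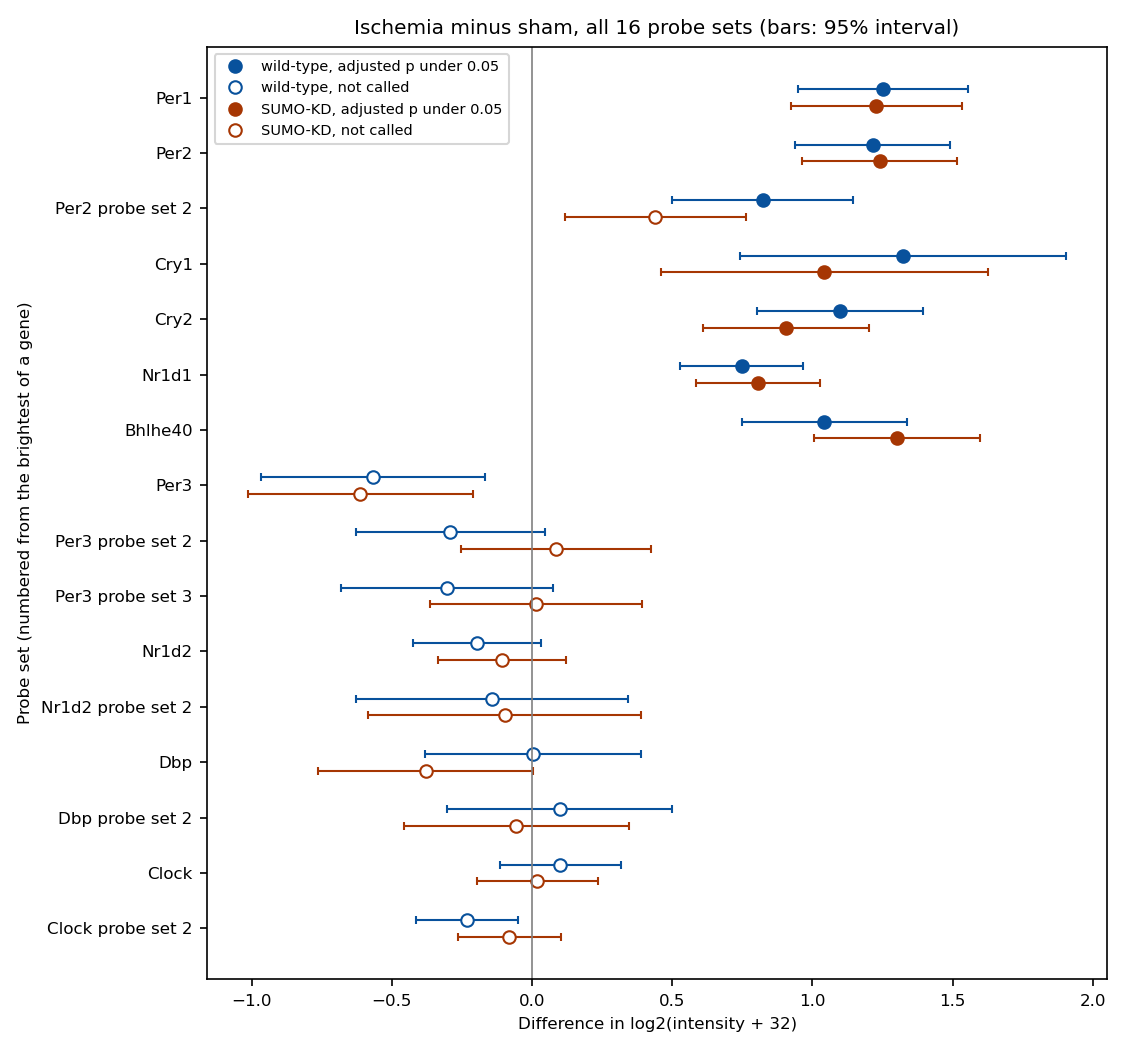
Difference of ischemia minus sham in log2(intensity + 32) (horizontal axis) for all 16 probe sets (vertical axis) in wild-type (blue) and SUMO-KD (brown); points are estimates, bars 95% intervals, and filled points passed at an adjusted p under 0.05. The brightest probe sets of the 6 raised genes lie from 0.75 to 1.32, the second Per2 probe set at 0.82 and 0.44, the brightest Per3 probe set at −0.57 and −0.61, and the other 8 between −0.38 and 0.10.

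The question of whether the knockdown altered these responses was put to the interaction, the SUMO-KD response minus the wild-type response. By limma, 0 of 16 probe sets passed, against 0.00981% of all probe sets, and 0 had an unadjusted p under 0.05. For Per1 the interaction was −0.02 (95% interval −0.45 to 0.41), for Per2 0.02 (−0.36 to 0.41) and for Nr1d1 0.06 (−0.25 to 0.37). Those intervals do not reach the size of the responses themselves, yet they allow a SUMO-KD response smaller by up to 0.45 or larger by up to 0.41. Cry1 was the least certain, at −0.28 (95% interval −1.10 to 0.54), and the second Per2 probe set had −0.38 (−0.84 to 0.08).

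Between the genotypes, Per2 was lower in SUMO-KD in both surgeries without passing in either, and Dbp had a difference of similar size after ischemia that did not pass. In sham, limma called 0 of 16 probe sets (1.29% of all were called) and 2 had an unadjusted p under 0.05. After ischemia it called 0 (1.07% of all) and 4 had an unadjusted p under 0.05. The bright Per2 probe set averaged 415 ± 50.8 in wild-type and 275 ± 39.2 in SUMO-KD sham arrays, and 1000 ± 42.4 and 694 ± 87.9 after ischemia (SD, n = 3 pools), so SUMO-KD stood at 0.664 and 0.693 of wild-type. The groups did not overlap in either surgery, but neither difference passed: −0.54 in sham (SE 0.13, limma adjusted p = 0.0678) and −0.52 after ischemia (SE 0.13, adjusted p = 0.0892). The sham difference passed without SUMO-KD sham replicate 2 (−0.64, limma adjusted p = 0.0495). After ischemia the bright Dbp probe set differed by −0.51 (95% interval −0.90 to −0.13, limma adjusted p = 0.222), a ratio of means of 0.699, with overlapping groups. The second Dbp probe set had −0.31 (95% interval −0.71 to 0.09, adjusted p = 0.495). Without SUMO-KD ischemia replicate 1, the lowest array, these were −0.31 (limma adjusted p = 0.467) and −0.16 (adjusted p = 0.809).

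A comparison added after these values were seen averaged the genotype difference over both surgeries. In it the bright Per2 probe set was the 1 member called by limma, at −0.53 (SE 0.09, 95% interval −0.72 to −0.33, adjusted p = 0.00796), against 4.22% of all probe sets, and it was called with each array left out in turn. As Per2 was singled out from the same arrays, this is a description and not independent support. The dim Per2 probe set gave −0.25 (limma adjusted p = 0.213), with group means of 38.7 and 35.4 in sham, close to the offset of 32. Its sham difference was −0.06 (adjusted p = 0.913). After ischemia it was −0.45 (adjusted p = 0.211), with group means of 92.6 in wild-type and 60.7 in SUMO-KD. Per1 ran the other way, at 0.22 (95% interval 0.01 to 0.43, adjusted p = 0.251), Bhlhe40 had −0.19 (adjusted p = 0.310) and Dbp −0.32 (adjusted p = 0.186). In sham, the CA1 marker sums were lower in SUMO-KD and the astrocyte marker sums higher, both without overlap, while the dentate marker sums overlapped. Interneuron marker sums in sham were also lower without overlap (11740.7 to 12138.8 in SUMO-KD against 12443.5 to 13242.4). After ischemia the CA1 and astrocyte sums of the genotypes overlapped (1894 to 2360 in SUMO-KD against 2074 to 2969 for CA1, and 14238 to 15139 against 13329 to 15630.4 for astrocytes). Choroid plexus sums were then higher in SUMO-KD without overlap, at 20777.4 to 25358.6 against 14915.8 to 18605.5. So were the oligodendrocyte sums, at 31754 to 33742 against 28283 to 30672. The sums of the other marker lists overlapped. The part of these markers in the Per2 difference was not tested.

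**Figure D3:**
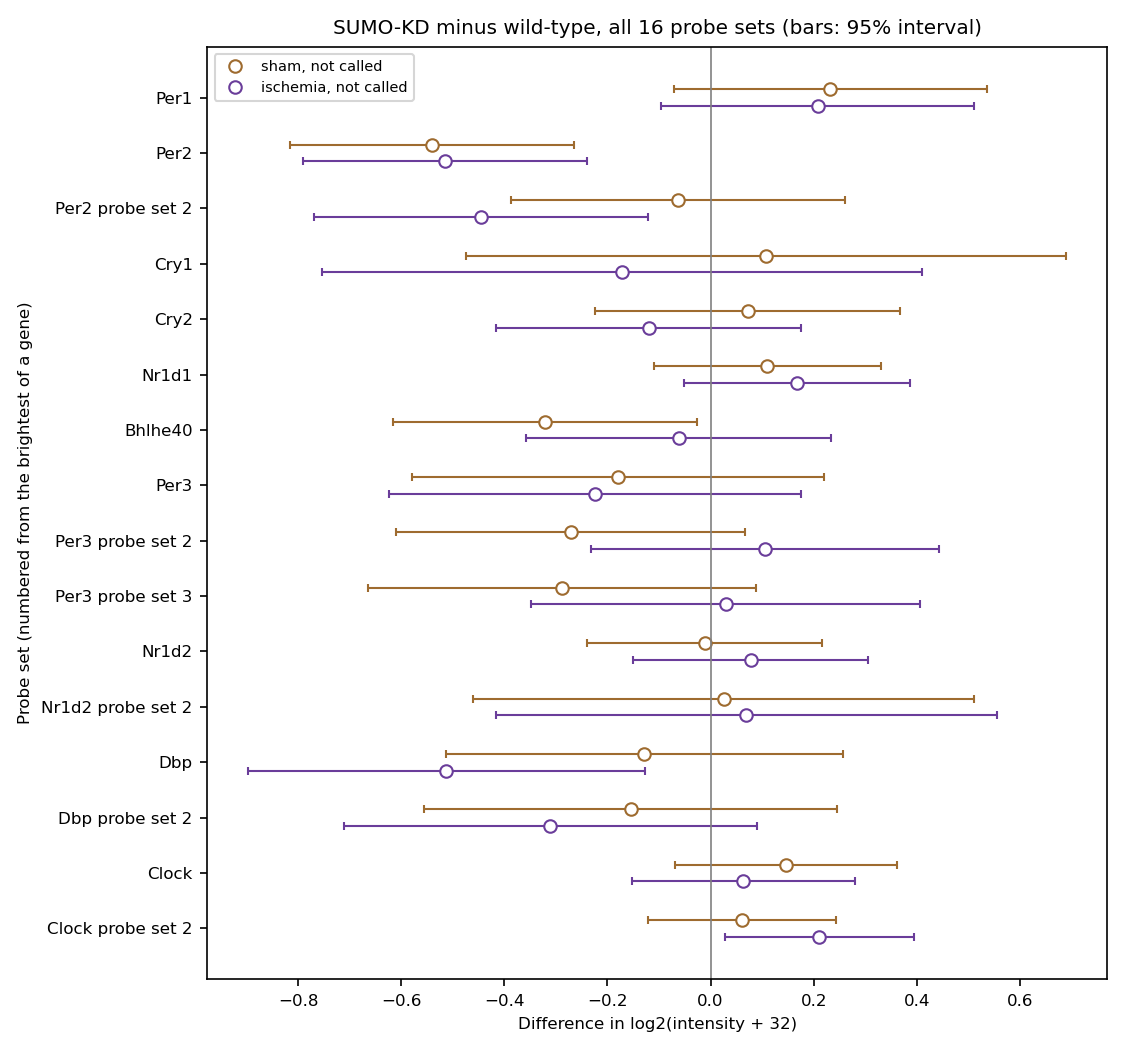
Difference of SUMO-KD minus wild-type in log2(intensity + 32) (horizontal axis) for the 16 probe sets (vertical axis), in sham (ochre) and after ischemia (purple), with 95% intervals; open points did not pass at an adjusted p under 0.05. The bright Per2 probe set lies at −0.54 and −0.52 with intervals below 0 in both surgeries, and the intervals of most others cross 0.

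The other measured genes of the clock were read by their brightest probe set. Of 34, limma called 8 higher in the mean ischemia response, against 12.4% of all genes, and 3 lower, against 13.2%, with a median of −0.03, like the −0.03 of all genes. In wild-type 7 rose, against 9.17% of all genes, and 2 fell, against 8.11%. In SUMO-KD 4 rose, against 5.62%, and 3 fell, against 4.15%. The rises sat mostly among the transcription factors, while kinases, ligases and cofactors moved little.

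Of 5 activators and receptors, 4 rose in the mean response. Arntl, the partner of Clock, rose from 416 to 644 in wild-type (0.59, limma adjusted p = 0.00428) and from 320 to 599 in SUMO-KD (0.84, adjusted p = 0.000741), while Clock was not called. Rorb, an activator of Arntl, rose from 95.6 to 232 (1.06) and from 106 to 216 (0.84), passing in both. Npas2, a relative of Clock that can replace it, and Rora were called in wild-type (0.97, limma adjusted p = 0.0129, and 0.59, adjusted p = 0.0223). In SUMO-KD they had 0.36 (adjusted p = 0.389) and 0.42 (adjusted p = 0.118), and a difference between genotypes is not shown by that. Arntl2, named after its value was seen, fell in SUMO-KD (−0.47, limma adjusted p = 0.0465), with 0.24 in wild-type (adjusted p = 0.258), at group means of 80.5 or less, so low on the scale.

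Nfil3, the repressor that opposes DBP at the D-box, had the largest difference of the 34. It went from 145 to 1320 in wild-type (2.93, SE 0.19, limma adjusted p = 3.51e-06) and from 116 to 932 in SUMO-KD (2.68, adjusted p = 1.01e-05). Usp2, a deubiquitinase gene with a strong daily rhythm, rose by 0.64 and 0.49. Tef and Hlf, which like Dbp encode PAR bZIP activators of the D-box and were named after their values were seen, were not called (mean response −0.23, limma adjusted p = 0.0623, and −0.35, adjusted p = 0.0505). Among 9 kinases and phosphatases Csnk1e, whose product marks PER proteins for decay, rose by 0.18 in the mean response (limma adjusted p = 0.0462). Gsk3a fell by 0.22 (adjusted p = 0.0171). Of 2 ubiquitin ligase genes Btrc fell by 0.36 (adjusted p = 0.00328). Of 13 cofactors Sirt1, a deacetylase gene, rose by 0.27 (adjusted p = 0.00827). Crebbp, a coactivator gene, fell by 0.33 (adjusted p = 0.0121). For kinases and cofactors, 1 call each way is no more than the shares of all genes, 12.4% higher and 13.2% lower. Csnk1e passed in neither genotype alone, Btrc in SUMO-KD only, and Gsk3a, Sirt1 and Crebbp in wild-type only.

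**Figure D4:**
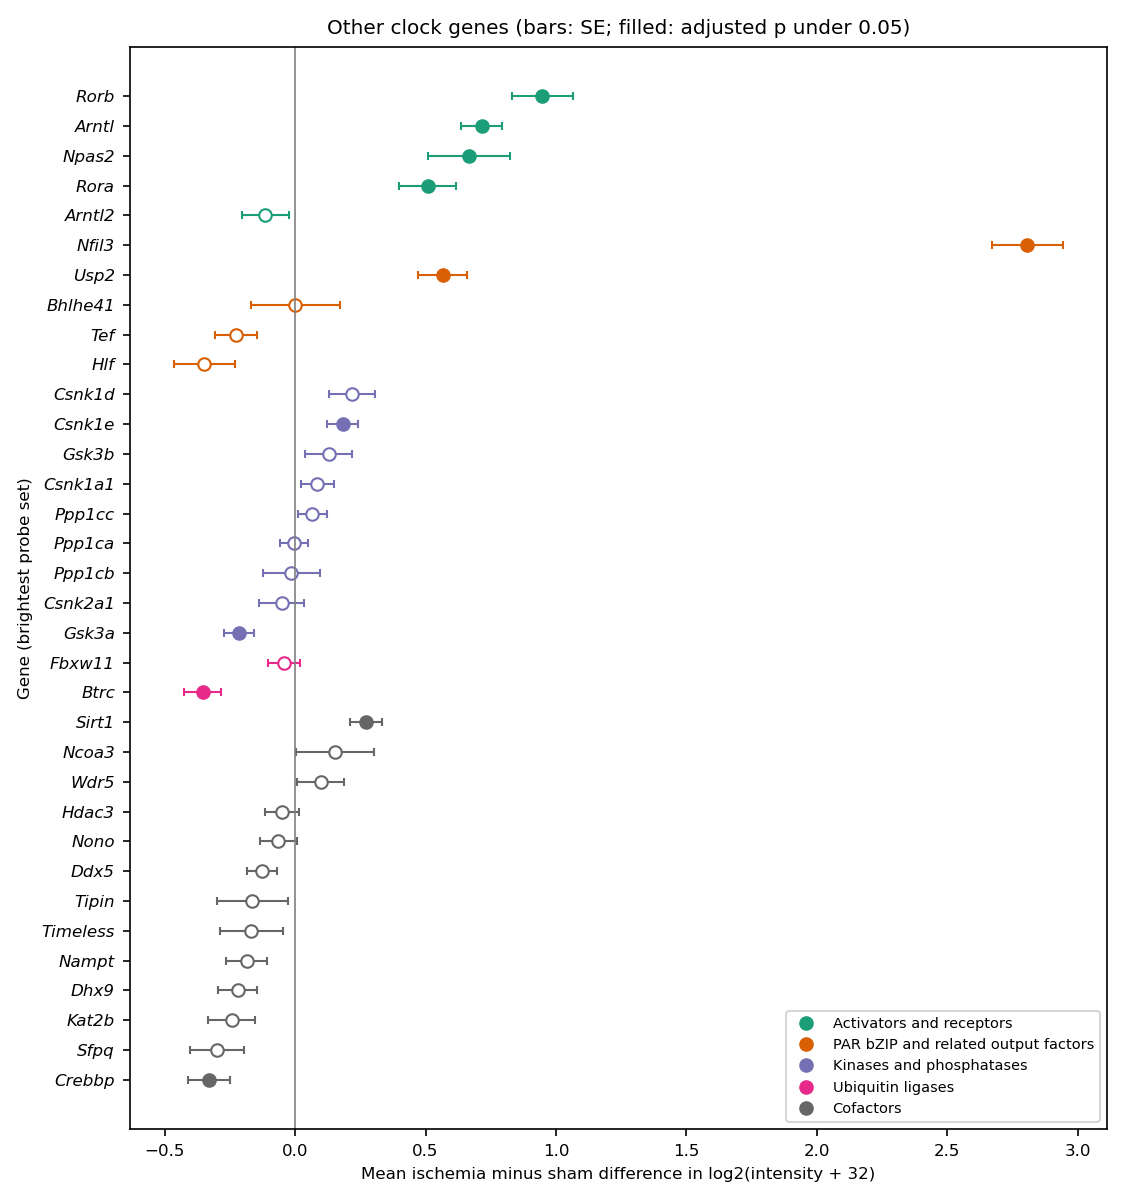
Mean ischemia minus sham difference over both genotypes in log2(intensity + 32) (horizontal axis) for 34 further clock genes (vertical axis), coloured by role; bars are SE and filled points passed at an adjusted p under 0.05. Nfil3 stands out at 2.81, Rorb, Arntl, Npas2 and Rora lie between 0.51 and 0.95, and most kinases and cofactors lie within 0.35 of 0.

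Genes linked to the inputs that reach Per1, mainly other targets of those inputs, were counted for context. Of 11 genes linked to CREB and neuronal activity, 9 rose in the mean response, against the 12.4% of all genes given above, and 1 fell, against 13.2% (Crem, named after its value was seen, −0.32). The list includes Creb1, the gene of CREB itself, which was not called (0.06, limma adjusted p = 0.828). The rises were led by Fos at 4.0, Arc at 2.98, Fosb at 2.21, Dusp1 at 1.83, Junb at 1.60 and Nr4a1 at 1.48. Of 10 genes linked to glucocorticoids, 6 rose and 0 fell by limma, against the same shares, and 8 had an unadjusted p under 0.05. The 6 were Cdkn1a (1.99), Pdk4 (1.29), Errfi1 (1.28), Sgk1 (0.65), Ddit4 (0.61) and Klf9 (0.36). The classical glucocorticoid targets Fkbp5 and Tsc22d3, named after their values were seen, were not called in the mean response (−0.18, limma adjusted p = 0.0753, and 0.05, adjusted p = 0.841). Fkbp5 fell after ischemia in SUMO-KD (−0.38, limma adjusted p = 0.0317), with 0.01 in wild-type (adjusted p = 0.949). Several of these genes also respond to other stimuli.

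The same lists were read for genotype because of the bright Per2 probe set. It was called lower in SUMO-KD only in the comparison added after its values were seen. Of the 11 genes linked to CREB and activity, 3 were lower in SUMO-KD sham than in wild-type sham arrays by limma, against 0.452% of all genes, and 0 were higher, against 1.18%. They were Arc, a synaptic immediate early gene (mean intensity 388 against 1079, −1.40, adjusted p = 0.00224), Nr4a1 (543 against 1332, −1.22, adjusted p = 0.0170) and Egr1 (3418 against 6241, −0.86, adjusted p = 0.0145), all named after their values were seen. Averaged over both surgeries, 4 were lower, against 1.74% of all genes, with Junb (−0.61, adjusted p = 0.0257) as the addition. After ischemia alone limma called 0 of the 11, against 0.460% of all genes lower and 0.863% higher, with 4 at an unadjusted p under 0.05. Arc had −0.57 (adjusted p = 0.170), Nr4a1 −0.39 (adjusted p = 0.458), Junb −0.42 (adjusted p = 0.352) and Egr1 0.04 (adjusted p = 0.943) there, so the averaged value of Egr1 came from sham. Of the 10 glucocorticoid-linked genes, 1 was higher in that average, against 3.37% of all genes: Fkbp5, which encodes a chaperone of the glucocorticoid receptor, read 994 in wild-type and 2043 in SUMO-KD sham arrays (1.01, adjusted p = 0.000587), and 1006 and 1558 after ischemia (0.62, adjusted p = 0.0141). Per1, which is driven by both inputs, had 0.23 in sham (95% interval −0.07 to 0.54) and 0.21 after ischemia (95% interval −0.10 to 0.51). The link between these genes and Per2 was not tested.

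Across the 12 arrays, the genes that tracked 3 of the members most closely were found among 8545 genes with a mean intensity of at least 64. Likeness was Pearson's correlation of log2(intensity + 32) over arrays, which share the 4 groups, so it mostly restates the group means. Closest to Per1 were Myc (0.969), Rell1 (0.968) and Gnai3 (0.966). Nr1d1 was closest to Slc30a1 (0.984), Myc (0.974) and Ppp1r15a (0.974). Myc, a growth-related transcription factor gene, had group means of 68.9 in wild-type sham, 324 in wild-type ischemia, 92.1 in SUMO-KD sham and 323 in SUMO-KD ischemia arrays. For Dbp the closest were Lin7c (0.912), Plbd2 (0.886) and Eed (0.860), whose low point was also the SUMO-KD ischemia group, at 1257 for Lin7c against 1430.2 or more in the other 3 groups.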

How the data were processed

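CA1 RNA was hybridised to 12 arrays (3 pools of 2 brains in each of 4 groups). The deposited table holds 1 linear intensity per probe set; Partek 6.6 and RMA appear in the submitters' processing notes without a role, but the values are linear and differ in their medians between arrays. How they were summarised is therefore unknown here, and no detection call was used. An offset of 32 was added before log2, taken from earlier work on these data; it shrinks differences of dim probe sets. Of 22690 probe sets, 20393 list 1 gene, 691 several and 1606 none; symbols came from the platform annotation. Group means were fitted to all 20393 probe sets with limma 3.58.1 in R 4.3.3 (lmFit, eBayes), with Benjamini-Hochberg adjustment over all of them, two-sided. Samples are labelled biological replicates, with no statement of litter or day, so p-values measure the spread between pools. The number of arrays limits precision. The fit was tested on simulated data. Members, gene lists and tests were chosen with earlier results of these data known. The rule named all members, the called genes of each further list (up to 6, by size), and the 3 genes most like Per1, Nr1d1 and Dbp. Promoter letters came from RefSeq (GRCm38.p6), whose table matched 8 of the 10 genes. Alternatives changed the offset, probe set choice, dim filter, normalization, block, samples, eBayes settings and array weights, or left out 1 array.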

Additional observations from a re-analysis of the deposited data

How the results depend on the processing

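Under the alternatives, no called value of a clock probe set changed sign: of 2640 recomputed values, 6 lost a call, 24 gained one, and 106 changed sign without being called under either setting. The count of called members ranged over the omissions of single arrays from 7 to 8 for ischemia in wild-type, from 5 to 7 for ischemia in SUMO-KD, from 8 to 9 for the mean response, from 0 to 1 for genotype in sham, from 0 to 0 for genotype after ischemia and the interaction, and from 1 to 1 for the mean genotype difference. Genotype in sham had 1 call, of Per2, in place of 0 with quantile normalization (adjusted p = 0.0444), trend and robust settings (0.0378) and array weights (0.0427). All 6 lost calls were of Cry1 in SUMO-KD; beside the omissions given above, the call was lost without an offset (1.13, adjusted p = 0.0717). With the replicate number as a block (replicate block), the count was 8 for wild-type and 7 for SUMO-KD, Per3 being added in each (adjusted p = 0.0324 and 0.0366); it changed no other call of a clock probe set. Same-numbered arrays of different groups had correlations of −0.135 to 0.249 (median 0.06) in their deviations from group means. Differently numbered arrays had −0.328 to 0.279 (median −0.025). As these ranges overlap and the labels name no day or batch, whether the numbers pair the samples cannot be told. For probe sets under an intensity of about 32, the offset shrinks a fall. The dimmest Per3 probe set, at 17.0 in wild-type sham and 7.4 in wild-type ischemia, differed by −0.30 (limma adjusted p = 0.279).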
